A study of Homo sapiens with 6 samples.

Results

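The genes described here are 33 genes of glycolysis and the pentose phosphate pathway, measured by RNA sequencing in K562 cells in which the gene ZNF410 was targeted with CRISPR guides. They were chosen by name, from pathway membership, out of 26485 gene symbols in the deposited count tables and 28069 genes in the deposited tables of estimated counts. All 33 were found in both kinds of table, and 32 of them had enough counts to be tested among 12282 genes. The exception was PGM1, which had no reads in any library. K562 is an established human line from chronic myeloid leukaemia, and ZNF410 encodes a zinc-finger transcription factor. The 6 libraries fell into 3 groups of 2. The sgNeg2 libraries carried a control guide and were labelled WT. The ZNF410_sgRNA#1 and ZNF410_sgRNA#2 libraries, called sgRNA1 and sgRNA2 here, carried guides against ZNF410 and were labelled as ZNF410 KO. All groups were grown in the same medium, and no other allele, agent or time point was labelled. The labels do not say whether the edited cells were clones or mixed populations, or whether replicates 1 and 2 were separate cultures, so p-values measure only the spread between these libraries, which may be technical.

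In glycolysis, glucose enters the cell through facilitative transporters, is phosphorylated by hexokinase and is broken down in successive steps to pyruvate, with phosphofructokinase as the main controlled step. Most steps have several isoenzymes encoded by separate genes, which differ between tissues. Pyruvate is reduced to lactate and exported, or enters the mitochondrion through pyruvate dehydrogenase, which the PDK kinases inhibit. The pentose phosphate pathway branches from glucose 6-phosphate and yields NADPH and ribose 5-phosphate. Its reversible steps, run by transketolase and transaldolase, return carbon to glycolysis.

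Windows of 250 bases before a RefSeq start (assembly GRCh38.p14) are shown for 4 members: ENO2 and GPI, which differed between guides and control, and HK2 and SLC2A1, which differed between replicate numbers. Each is written 5′ to 3′ on the gene's own strand. Capitals mark ACGTG on either strand, the core of a hypoxia response element, which is also part of the E-box CACGTG. ENO2 is at chr12:6914330-6914579 on the plus strand, GPI at chr19:34364742-34364991 on the plus strand, HK2 at chr2:74833877-74834126 on the plus strand and SLC2A1 at chr1:42958869-42959118 on the minus strand. The GPI window lies inside the annotated span of GPI, before an inner start, while the others end at the start of their gene's span.
ENO2: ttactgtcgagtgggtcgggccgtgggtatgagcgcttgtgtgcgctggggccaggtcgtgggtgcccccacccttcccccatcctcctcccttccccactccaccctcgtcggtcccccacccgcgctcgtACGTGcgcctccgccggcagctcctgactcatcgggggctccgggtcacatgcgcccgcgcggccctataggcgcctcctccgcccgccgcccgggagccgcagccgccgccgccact
GPI: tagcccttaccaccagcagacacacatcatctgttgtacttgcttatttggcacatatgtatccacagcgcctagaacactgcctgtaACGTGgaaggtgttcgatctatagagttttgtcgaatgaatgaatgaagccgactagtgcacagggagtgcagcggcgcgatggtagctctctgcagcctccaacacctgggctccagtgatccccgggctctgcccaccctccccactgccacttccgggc
HK2: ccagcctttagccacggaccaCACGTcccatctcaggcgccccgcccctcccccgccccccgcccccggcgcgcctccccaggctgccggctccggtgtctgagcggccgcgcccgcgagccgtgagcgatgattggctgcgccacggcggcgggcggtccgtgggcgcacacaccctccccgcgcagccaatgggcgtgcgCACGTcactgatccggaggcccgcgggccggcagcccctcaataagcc
SLC2A1: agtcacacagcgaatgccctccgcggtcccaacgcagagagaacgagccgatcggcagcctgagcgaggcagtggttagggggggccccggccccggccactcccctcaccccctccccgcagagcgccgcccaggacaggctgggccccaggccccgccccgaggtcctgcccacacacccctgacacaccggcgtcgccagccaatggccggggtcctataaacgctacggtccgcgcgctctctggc
ACGTG occurred once in the windows of ENO2 and GPI, 2 times in that of HK2 and not in that of SLC2A1. Over all 35116 such windows 18.5% held ACGTG. Windows were listed for 30 of the 33 genes, 60 windows in all, of which 22 (36.7%) held it, from 19 genes. The letters CCCATAA, which are part of the known ZNF410 binding motif, were in 1.60% of all windows and in 0 of the 60. SLC2A3, SLC16A1 and PFKFB2 had no entry. A match of letters is a description and does not show that a factor binds there.

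Gene counts summed to 8788816 to 9537470 per library. Values in CPM (counts scaled to library size) below use these totals scaled by TMM, the trimmed mean of M-values. The targeted gene ZNF410 was at 38.2 CPM in control replicate 1 and 34.0 in control replicate 2, and between 17.0 and 24.5 CPM in the knockout libraries. CHD4, a chromatin remodeller known as the main target of ZNF410, was at 590 and 666 CPM in the controls and between 284 and 326 CPM in the 4 knockout libraries. All 10 K562 erythroid markers were detected. They summed to 3767 to 4277 CPM in the replicate 1 libraries and to 6312 to 7424 in the replicate 2 libraries. Lymphoid markers summed to 13.1 to 21.3 CPM in replicate 1 and 3.46 to 5.33 in replicate 2, and myelomonocytic markers to 12.3 to 17.6 and 2.74 to 4.13. CD3D and LYZ made up most of these sums in the replicate 1 libraries, and CD3E, CD14, CSF1R, MPO, MS4A1 and ELANE were under 1 CPM in every library. MS4A1 and ELANE were at 0 and MPO did not exceed 0.115 CPM. Stromal and epithelial markers summed to 204 to 232 CPM, nearly all from EPCAM and KRT19. In bulk RNA, fewer cells of a type and less RNA per cell cannot be told apart.

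Most of the pathway RNA in these cells came from a few abundant enzymes of lower glycolysis. Levels between genes are compared here in FPKM, which is scaled by gene length and library size. GAPDH, the glyceraldehyde 3-phosphate dehydrogenase, had the highest mean FPKM in the controls, 2626 ± 493 (SD, n = 2). ENO1, the ubiquitous enolase, followed with 1708 ± 246, then LDHB with 1453 ± 58.9 and ALDOA, the main aldolase of most tissues, with 1051 ± 17.3. LDHA was at 742 ± 27.0, TPI1, the triose phosphate isomerase, at 565 ± 55.8 and TALDO1, the transaldolase, at 502 ± 49.0. HK1 (336 ± 63.0), PKM (293 ± 91.0), PGAM1 (286 ± 34.4) and TKT (283 ± 10.1) followed one another, and each adjacent pair differed in mean FPKM by less than the larger of its 2 SDs. At the low end stood ENO3 with 2.54 ± 0.233 FPKM, ENO2 with 2.46 ± 0.304, SLC16A3 with 0.95 ± 0.424 and PDK3 with 0.34 ± 0.226. The 33 genes together took 1.34% to 1.41% of all TPM, a measure scaled by length and to the same total in each library, in the 3 replicate 1 libraries and 1.55% to 1.73% in the 3 replicate 2 libraries, so the replicate numbers did not overlap on this share.

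**Figure D1:**
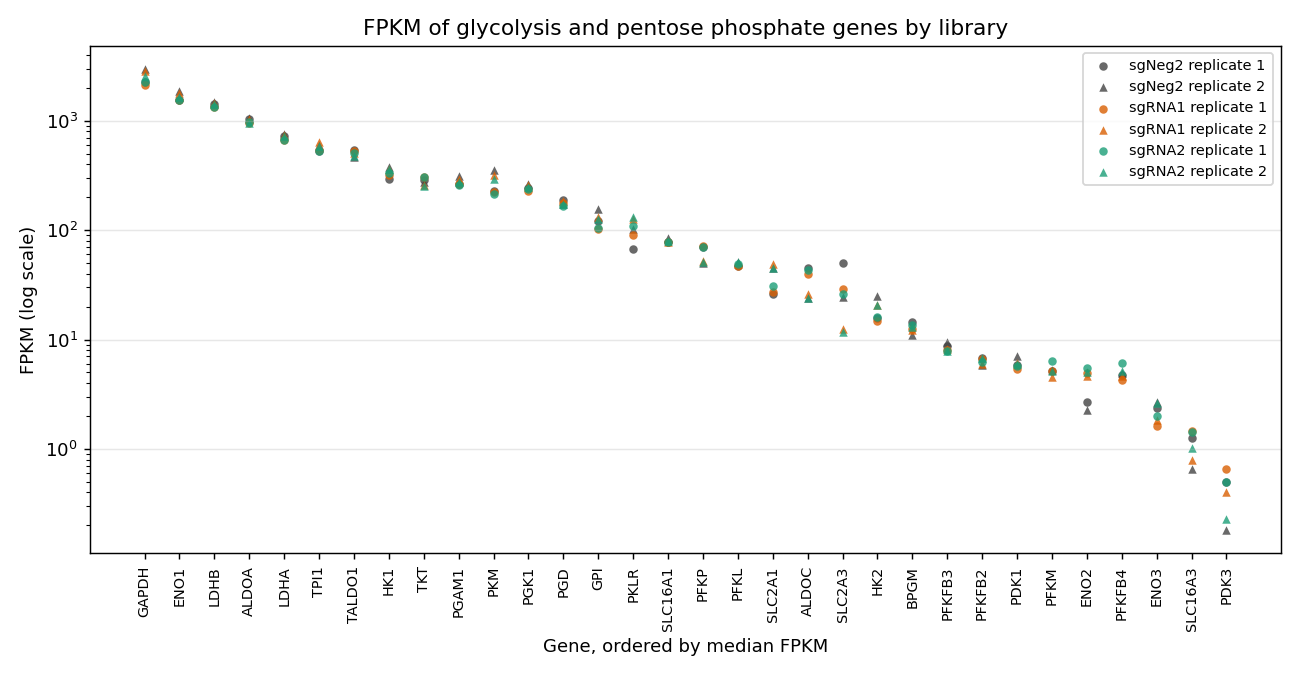
FPKM on a log scale (y axis) of the 32 detected genes, ordered by median FPKM (x axis), with 1 point for each of 6 libraries. Levels run from 2122 to 2975 FPKM for GAPDH down to 0.18 to 0.66 for PDK3, and SLC2A3 spreads from 11.7 to 50.3 FPKM between libraries.

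In several steps 1 isoenzyme held nearly all of the FPKM. Over the 6 libraries HK1 made up 93.9% to 95.6% of hexokinase FPKM, with HK2, the insulin- and hypoxia-responsive form, making up the rest. ALDOA made up 95.7% to 97.8% of aldolase FPKM, against ALDOC, the aldolase of brain. ENO1 made up 99.5% to 99.7% of enolase FPKM, with ENO2 (the neuronal form) at 0.12% to 0.35% and ENO3 (the muscle form) at 0.10% to 0.16%. SLC16A1, the lactate carrier MCT1, made up 98.2% to 99.2% against SLC16A3, the exporter MCT4 of glycolytic tissues. PGAM1, the phosphoglycerate mutase, made up 94.8% to 96.5% against BPGM, which makes 2,3-bisphosphoglycerate in red cells. PDK1 made up 89.0% to 97.5% of the PDK1 and PDK3 sum.

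Other steps were shared. LDHB, the lactate dehydrogenase subunit typical of heart, held 66.1% to 66.7% of the FPKM of its step and LDHA, the subunit typical of muscle, 33.3% to 33.9%, the narrowest range of the shared steps. Phosphofructokinase was split between PFKP, the platelet form, with 47.5% to 57.8%, PFKL, the liver form, with 38.1% to 47.5%, and PFKM, the muscle form, with 4.12% to 5.03%. By whole-number counts over length the PFKM share was 14.8% to 17.3%. Over the libraries the ratio of whole-number to estimated counts for PFKM was 2.12, where the median gene had 0.553. PFKM overlaps the gene SENP1. The PFKP share was 56.1% to 57.8% in the replicate 1 libraries and 47.5% to 49.3% in the replicate 2 libraries. Among the bifunctional enzymes that set the phosphofructokinase activator fructose 2,6-bisphosphate, PFKFB3 held 39.0% to 46.4%, PFKFB2 29.2% to 35.3% and PFKFB4 22.6% to 30.0%. Of the 3 pentose phosphate genes TALDO1 held 51.0% to 53.4%, TKT, the transketolase, 27.2% to 31.0% and PGD, the 6-phosphogluconate dehydrogenase, 17.2% to 19.4%.

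The glucose transporters had the most variable split. SLC2A3 (GLUT3, the high-affinity neuronal form) held 66.0% of the SLC2A1 and SLC2A3 FPKM in control replicate 1 and 35.4% in control replicate 2. Its share was 51.5% and 20.3% under guide sgRNA1 and 45.9% and 20.5% under guide sgRNA2. Within each replicate number both guide libraries had a lower SLC2A3 share than the control, while across numbers the groups overlapped.

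**Figure D2:**
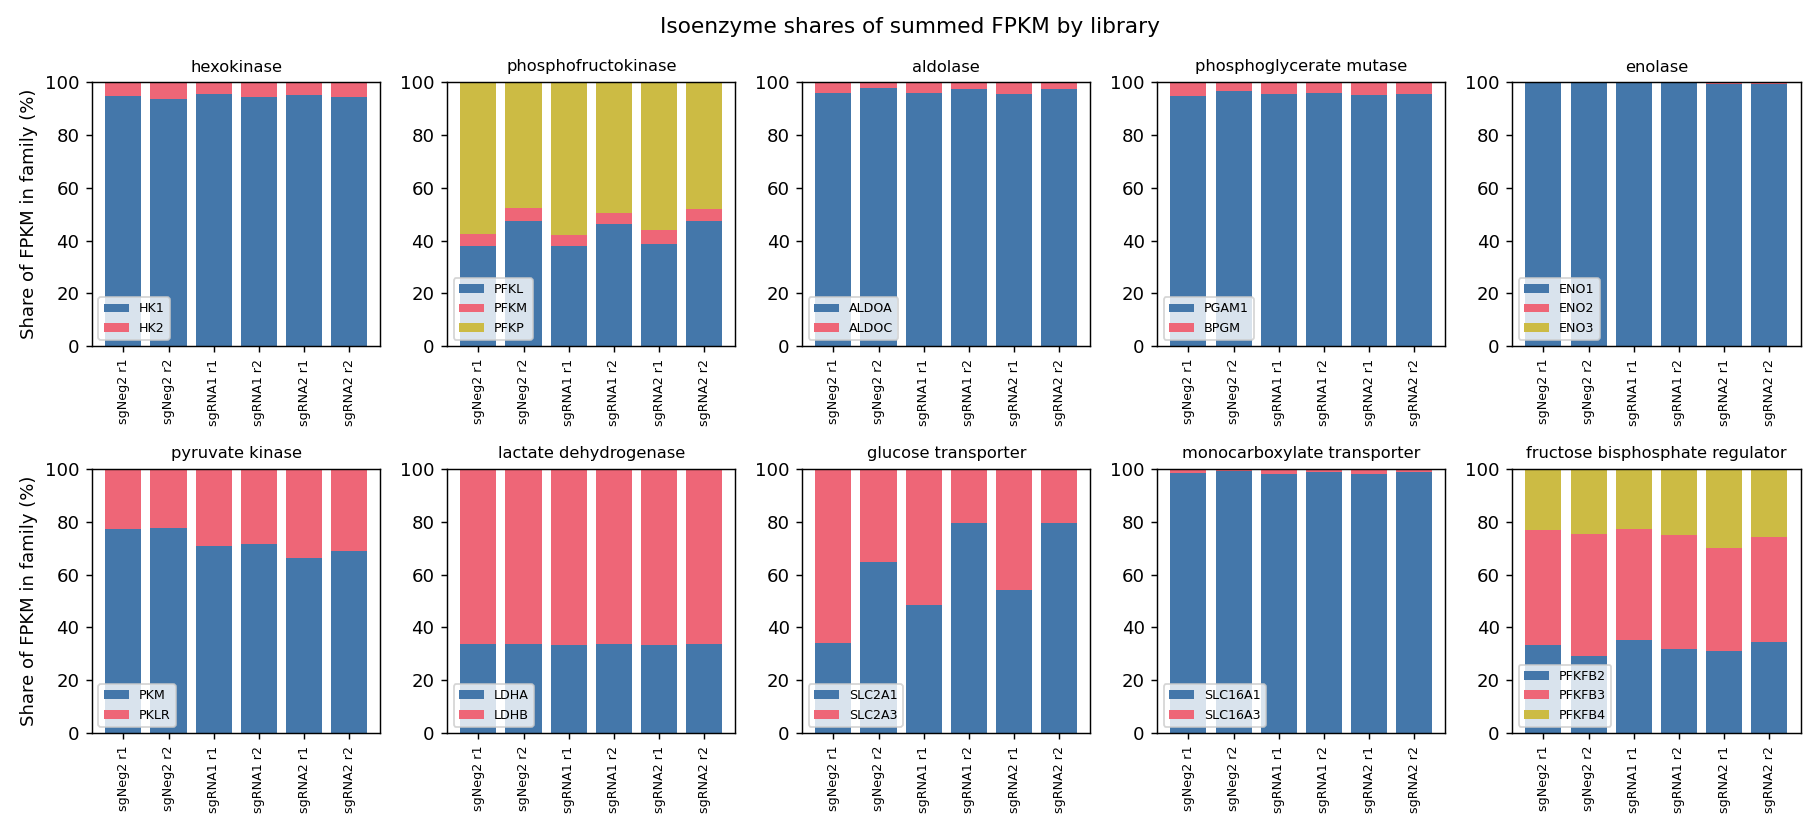
Share of the summed FPKM of each enzyme or transporter family (y axis, percent) held by each member, in 6 stacked bars per family, 1 bar per library (r1 and r2 are replicates 1 and 2). LDHA stays at 33.3% to 33.9%, while SLC2A3 ranges from 20.3% to 66.0% and PKLR from 22.3% to 33.8%.

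The guide comparison asked which of these genes differ when ZNF410 is targeted. Without regard to the replicate number, 0 of the 32 tested members passed an adjusted p of 0.05 for sgRNA1, for sgRNA2 or for KO against WT, and 0.00% of all 12282 genes did so in each of these comparisons (edgeR quasi-likelihood test, Benjamini-Hochberg adjustment). At an unadjusted p under 0.05 there was 1 member of 120 genes for sgRNA1, 1 of 141 for sgRNA2 and 2 of 284 for KO against WT. The DESeq2 Wald test called 1 member, ENO2, in KO against WT (background 0.155% of all genes). With the replicate number as a block, 2 members were called for sgRNA1 (background 0.887% of all genes), 3 for sgRNA2 (background 1.38%) and 3 for KO against WT (background 1.84%). These were SLC2A3, ENO2 and GPI, the last not with sgRNA1. Estimated counts with the block gave 4 members in each comparison, PKLR and GPI among them, against 1.39%, 2.26% and 3.03% of all genes. For sgRNA1, sgRNA2 and KO against WT in that order, DESeq2 with the block called 1, 3 and 3 members, against 0.449%, 0.750% and 1.37% of the genes to which it gave an adjusted p. Limma on FPKM with the block called 2, 2 and 4, against 0.372%, 0.795% and 1.64%. Both guides share the control libraries, so these comparisons are not independent. The median log2 fold change of the 32 members in KO against WT was -0.05 with the block, beside 0.00446 over all genes. By sign alone, without a call, 22 of the 32 had negative values, beside 5950 of 12282 genes. With estimated counts and the block the number was 18 of the 32, beside 6257 of 12764 genes.

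Differences between a guide library and the control library of the same replicate number, in log2 CPM, gave a finer view. In 3 members (ENO2, SLC2A1 and SLC16A3) all 4 differences lay above 0, and 16.2% of all tested genes had this pattern. In 8 members (GPI, ALDOA, PGK1, BPGM, PKM, LDHA, LDHB and SLC2A3) all 4 lay below 0, against 14.9% of all genes. Across replicate numbers, the 4 knockout libraries lay above both controls for ENO2 and SLC16A3, a pattern shown by 5.05% of all genes, and below both for ALDOA, shown by 4.40%.

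**Figure D3:**
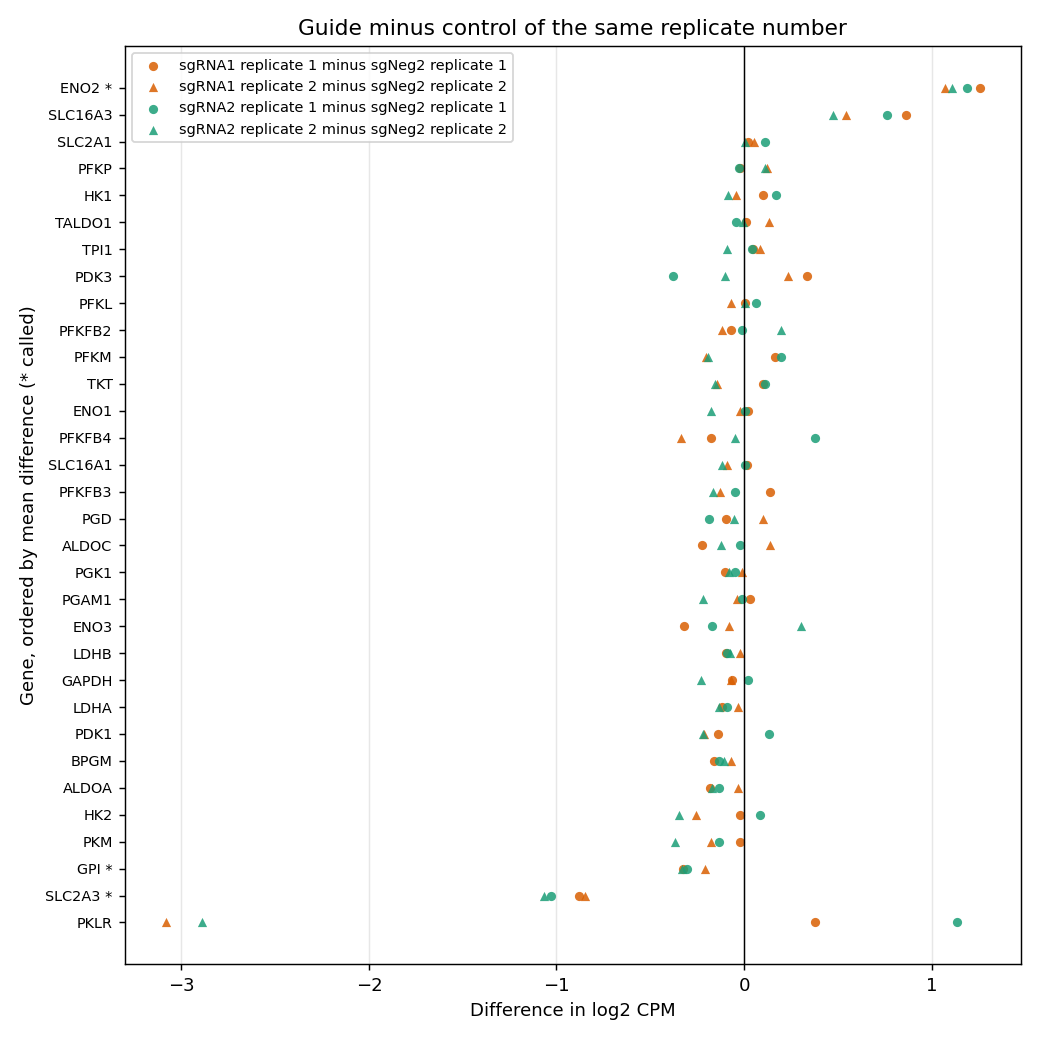
Difference in log2 CPM between each guide library and the control library of the same replicate number (x axis) for 32 genes ordered by mean difference (y axis). Circles are replicate 1 and triangles replicate 2, and stars mark genes called in KO against WT with the replicate block. ENO2 lies at 1.07 to 1.26, SLC2A3 at -1.07 to -0.85 and GPI at -0.33 to -0.21, while PKLR lies on both sides of 0.

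SLC2A3, at chr12:7919230-7936187, fell with both guides. It was at 182 CPM in control replicate 1, 98.8 in sgRNA1 replicate 1 and 89.1 in sgRNA2 replicate 1. The replicate 2 libraries were at 84.9 CPM for sgNeg2, 47.1 for sgRNA1 and 40.4 for sgRNA2. In each replicate number both guide libraries were the lower ones, but the replicate 1 knockout libraries stood above the replicate 2 control, so the groups overlapped. With the block, SLC2A3 was 0.516-fold in KO against WT (log2 -0.96, SE 0.0705, edgeR quasi-likelihood adjusted p = 2.77e-06). The value was -0.87 for sgRNA1 (adjusted p = 1.95e-05) and -1.05 for sgRNA2 (adjusted p = 2.96e-06) in the same edgeR fit. Without the block the edgeR adjusted p was over 0.05, as for every member. Estimated counts with the block gave -0.95 in KO against WT. The near-identical paralog SLC2A14 had 3 to 13 counts per library.

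SLC2A1 (GLUT1, the transporter of red cells and most proliferating cells) did not pass in any guide comparison. In replicate 1 it was at 88.9 CPM in sgNeg2, 90.1 in sgRNA1 and 96.1 in sgRNA2, and in replicate 2 at 145, 150 and 145. The groups overlapped, and the values followed the replicate number. Its log2 fold change in KO against WT was 0.05 with an SE of 0.0604.

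ENO2, at chr12:6914580-6923697, rose with both guides. The controls had 5.997 CPM (52 counts) and 5.06 CPM (48 counts). The sgRNA1 libraries had 14.6 and 10.9 CPM, and the sgRNA2 libraries 13.9 and 11.2. All 4 knockout libraries stood above both controls. With the block it was 2.28-fold in KO against WT (log2 1.19, SE 0.171, edgeR quasi-likelihood adjusted p = 0.00160), with 1.20 for sgRNA1 (adjusted p = 0.00849) and 1.18 for sgRNA2 (adjusted p = 0.00663). Leaving out a library, here and below, leaves its guide group with 1 library that the guide fits assume to vary like the other groups. A p-value from such a fit is no replicated test of that group. In KO against WT both guides are pooled, so this applies there only when a control library is left out. The sgRNA1 call was lost without sgRNA1 replicate 1 (edgeR adjusted p = 0.168) and in DESeq2 with the block (adjusted p = 0.0813). The sgRNA2 call was lost in DESeq2 with the block (adjusted p = 0.0657). The rise left ENO2 a minor enolase, at 4.68 to 5.49 FPKM in the knockout libraries where ENO1 was at 1554 to 1779 FPKM.

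GPI, at chr19:34359718-34402413, encodes glucose 6-phosphate isomerase, the step after hexokinase. It was at 395 CPM in control replicate 1, 316 in sgRNA1 replicate 1 and 320 in sgRNA2 replicate 1. The replicate 2 values were 465 CPM for sgNeg2, 403 for sgRNA1 and 370 for sgRNA2. Both guides were lower within each number, and the groups overlapped across numbers. With the block GPI fell in KO against WT to 0.817-fold (log2 -0.29, SE 0.0512, edgeR quasi-likelihood adjusted p = 0.00738). It fell with sgRNA2 (-0.32, edgeR adjusted p = 0.0146) and was at -0.27 with sgRNA1 (edgeR adjusted p = 0.0561), where estimated counts gave a call (adjusted p = 0.0342). The KO call was lost without sgNeg2 replicate 1 (adjusted p = 0.0648 in edgeR), and the sgRNA2 call without sgRNA2 replicate 2 (adjusted p = 0.0728 in edgeR) and in limma with the block (adjusted p = 0.101). The sgRNA1 call was gained without 1 of 4 libraries, namely sgNeg2 replicate 1, sgNeg2 replicate 2, sgRNA2 replicate 1 or sgRNA2 replicate 2, at edgeR adjusted p from 0.00394 to 0.0147.

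**Figure D4:**
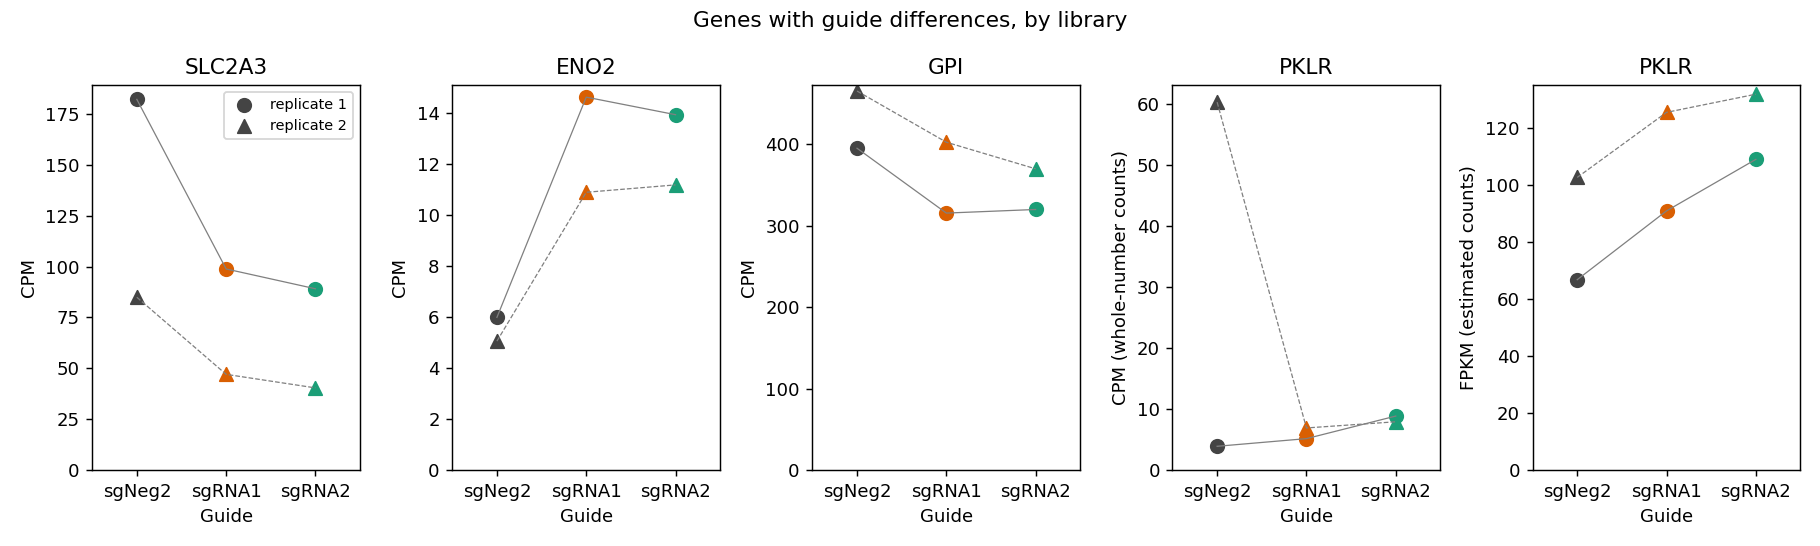
Level of SLC2A3, ENO2 and GPI in CPM and of PKLR in CPM and in FPKM (y axes from 0) in 6 libraries by guide (x axis), with lines joining libraries of the same replicate number. SLC2A3 and GPI are lower and ENO2 is higher with both guides within each number, and the PKLR panels differ in control replicate 2, which is the highest library in CPM but not in FPKM.

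No other member passed in the edgeR fit of whole-number counts with the block and all 6 libraries. At the head of the pathway, HK1 ranged from 1032 to 1310 CPM and HK2 from 115 to 185 CPM, with paired guide differences of -0.08 to 0.17 and -0.34 to 0.08 on the log2 scale. HK2 passed without sgNeg2 replicate 1, where the control is 1 library and the spread comes from the knockout groups, at -0.31 for sgRNA1 and -0.30 for sgRNA2 (edgeR adjusted p = 0.0125 for each). The 3 phosphofructokinase genes had paired differences of both signs, with the widest range, -0.20 to 0.20, for PFKM. ALDOA was at 1421 and 1392 CPM in the controls and at 1238 to 1361 CPM in the knockout libraries. All 4 knockout values lay below both controls, and the blocked log2 fold change of -0.13 (SE 0.0474) had an edgeR adjusted p of 0.243. ALDOC ranged from 34.2 to 68.7 CPM, with paired differences of -0.23 to 0.14.

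The steps from triose phosphates to phosphoenolpyruvate, which yield ATP and NADH, had paired differences within 0.32 of 0 in the 7 members other than ENO2, described above. TPI1 had paired log2 differences of -0.09 to 0.09, GAPDH of -0.23 to 0.02 and PGK1, the phosphoglycerate kinase, of -0.10 to -0.01. Those of PGAM1 were -0.22 to 0.03 and those of BPGM -0.16 to -0.07. ENO1 stood at -0.18 to 0.02, and ENO3, at 3.19 to 5.00 CPM, at -0.32 to 0.30. None of these 7 genes reached an edgeR adjusted p under 0.05 in any guide comparison, with or without the block. GAPDH, PGAM1 and some others have processed pseudogenes, 65 named ones for GAPDH and 13 for PGAM1, so reads of these genes may be split or discarded in counting.

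Of the pyruvate kinases, PKLR differed in direction between the deposited tables. PKM, which encodes the pyruvate kinase of most tissues, was at 573, 563 and 521 CPM in the sgNeg2, sgRNA1 and sgRNA2 libraries of replicate 1 and at 893, 789 and 691 in those of replicate 2. The knockout libraries were lower within each number and the groups overlapped across numbers. Its blocked log2 fold change was -0.18 in KO against WT (edgeR adjusted p = 0.211) and -0.25 with sgRNA2 (edgeR adjusted p = 0.0597). The sgRNA2 value passed in DESeq2 with the block (adjusted p = 0.0493). It also passed in edgeR with the block without sgNeg2 replicate 1, sgRNA1 replicate 2 or sgRNA2 replicate 1, with adjusted p from 2.18e-06 to 0.0497. The sgRNA1 value passed without sgNeg2 replicate 1 (-0.20, edgeR adjusted p = 0.0452), again against 1 control library with the spread of the knockout groups.

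PKLR, at chr1:155289293-155308654, encodes the pyruvate kinase of liver and red cells and overlaps the gene HCN3. In whole-number counts control replicate 1 had 34 and control replicate 2 had 571 counts, and the knockout libraries had 47, 66, 82 and 73. Control replicate 2 stood far above the other 5 libraries. In FPKM from the estimated counts, PKLR was at 66.8, 90.9 and 109 in replicate 1 of sgNeg2, sgRNA1 and sgRNA2 and at 102.6, 125 and 132 in replicate 2, with the guides higher within each number. The whole-number count was 0.0279 of the estimated count over the libraries, where the median gene had 0.553. With the block, log2 fold changes in KO against WT were -1.75 from whole-number counts (edgeR adjusted p = 0.0987) and 0.44 from estimated counts (edgeR adjusted p = 0.00594), so the direction differed between the tables when all libraries were used. By FPKM, PKLR held 22.5% ± 0.21 (SD, n = 2) of pyruvate kinase in the controls, 28.7% ± 0.47 with sgRNA1 and 32.5% ± 1.86 with sgRNA2. By whole-number counts divided by length its share was 0.60% to 5.66%. In whole-number counts with the block, KO against WT was called without sgNeg2 replicate 1 (-3.03), where the control with 571 counts was the only one left and the spread came from the knockout libraries, and without sgRNA2 replicate 1 (-2.20), and was at 0.84 without sgNeg2 replicate 2. Both guides were also called lower without sgNeg2 replicate 1 or sgRNA2 replicate 1, and sgRNA1 without sgRNA2 replicate 2. HCN3 had 7 to 18 counts per library, and its whole-number count was 0.0417 of its estimated count. Which table is nearer to the true PKLR level was not tested.

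No gene of lactate formation or export passed in a guide comparison. LDHA had paired guide differences of -0.13 to -0.03 and LDHB of -0.09 to -0.02 on the log2 scale, all below 0. SLC16A1 ranged from 290 to 315 CPM with paired differences of -0.12 to 0.01. SLC16A3 was at 2.08 and 1.58 CPM in the controls and at 3.96, 2.41, 3.68 and 2.28 CPM in the knockout libraries. All 4 knockout libraries were above both controls, yet the blocked log2 fold change of 0.73 (SE 0.316) had an edgeR adjusted p of 0.334, and in FPKM the groups overlapped. SLC16A3 overlaps CSNK1D, and the strand setting of the counting is not given in the sources used here.

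The regulators and the pentose phosphate genes did not pass in any guide comparison. Paired log2 differences were -0.12 to 0.20 for PFKFB2, -0.16 to 0.14 for PFKFB3 and -0.33 to 0.38 for PFKFB4. They were -0.22 to 0.13 for PDK1 and -0.38 to 0.33 for PDK3, which had 8 to 19 counts. PGD stood at -0.18 to 0.10, TKT at -0.15 to 0.11 and TALDO1 at -0.04 to 0.13. TKT was above its control in replicate 1 and below it in replicate 2 with both guides.

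No member passed between the guides. With the block, 0 of 32 members passed in sgRNA2 against sgRNA1 in edgeR, and 0.0896% of all genes passed. At an unadjusted p under 0.05 there were 3 members, beside 539 of 12282 genes. DESeq2 and limma with the block called 0 members as well, and 0.0326% and 0.0169% of all genes. SLC2A3 was at -0.18 (SE 0.0776, edgeR adjusted p = 0.999) and PKM at -0.15 (SE 0.0619, edgeR adjusted p = 0.999). Without sgRNA2 replicate 2 the fit called PKLR at 2.14 (edgeR adjusted p = 1.97e-05).

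PGM1, the phosphoglucomutase that links glycogen to glycolysis, had 0 counts in all 6 libraries and 0 estimated counts. A count of 0 allows up to 0.315 to 0.341 CPM (3 counts of the unscaled library total), for counting error only. Its neighbours ROR1, UBE2U and CACHD1 were also at 0, a run of 4 consecutive protein-coding genes over chr1:63593411-64693053. The flanking genes EFCAB7 and RAVER2 had 26 to 55 and 205 to 325 counts. Of 1850 protein-coding genes of chromosome 1, 421 (22.8%) were at 0 in every library, and this run was looked up after the values were seen.

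Calls between the replicate numbers were about as frequent among these genes as among all genes. In a fit with guide and replicate number, 15 of 32 members were called, where the background was 45.0% of all genes (edgeR quasi-likelihood test, Benjamini-Hochberg adjustment). Higher in replicate 2 were 9 members (background 21.6%): ENO1, HK1, TPI1, GPI, GAPDH, HK2, PKM, SLC2A1 and PKLR. Lower were 6 (background 23.5%): SLC2A3, ALDOC, PFKP, PFKM, TKT and TALDO1. All 3 replicate 2 libraries lay above all 3 replicate 1 libraries for 8 members (25.6% of all genes) and below them for 8 (26.5%). All 3 within-guide differences were above 0 for 13 members (32.6% of all genes) and below 0 for 10 (34.3%). The labels do not say what a replicate number stands for. The summed erythroid markers were higher (8 of 10 called higher, GATA1 and NFE2 lower) and the summed lymphoid and myelomonocytic markers lower in replicate 2, and their part in these differences was not tested.

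The glucose transporters moved in opposite directions between the numbers. SLC2A3 was at 182, 98.8 and 89.1 CPM in the replicate 1 libraries of sgNeg2, sgRNA1 and sgRNA2 and at 84.9, 47.1 and 40.4 in replicate 2, a log2 difference of -1.10 (SE 0.0614, edgeR quasi-likelihood adjusted p = 8.83e-09). SLC2A1 was at 88.9 to 96.1 CPM in replicate 1 and at 145 to 150 in replicate 2, a difference of 0.68 (SE 0.0580, edgeR adjusted p = 5.12e-07). The numbers did not overlap for SLC2A1. For SLC2A3 the lowest replicate 1 library, at 89.1 CPM, stood just above the highest of replicate 2, at 84.9.

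The called members of glycolysis went in both directions between the replicate numbers. BPGM and ENO2, which were not called, were lower in replicate 2 within each guide group. Their log2 differences were -0.23 to -0.15 and -0.42 to -0.23. PKM rose 1.43-fold in replicate 2 (log2 0.51, SE 0.0506), HK2 1.36-fold (0.45, SE 0.0713), GAPDH 1.24-fold (0.31, SE 0.0495) and GPI 1.20-fold (0.27, SE 0.0489). TPI1 and HK1 rose 1.16-fold each and ENO1 1.12-fold. ALDOC fell to 0.576-fold (log2 -0.79, SE 0.0903), PFKP to 0.730-fold (-0.45, SE 0.0562) and PFKM to 0.812-fold (-0.30, SE 0.0810). In the pentose phosphate branch TKT fell to 0.858-fold and TALDO1 to 0.899-fold, while PGD was at -0.05 on the log2 scale (edgeR adjusted p = 0.427). PFKL, the second main phosphofructokinase, was at 0.08 (edgeR adjusted p = 0.279).

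Several of these calls depended on the data used. PFKM was lost with estimated counts (edgeR adjusted p = 0.256), in DESeq2 (adjusted p = 0.0572) and without sgRNA1 replicate 1, sgRNA1 replicate 2 or sgRNA2 replicate 1 (edgeR adjusted p = 0.0605 to 0.0951). ENO1 was lost without sgRNA1 replicate 1 or replicate 2 (edgeR adjusted p = 0.0755 and 0.0595), TKT without sgRNA1 replicate 1 (0.0747) and TALDO1 without sgRNA2 replicate 1 or replicate 2 (0.0674 and 0.0616). PKLR, at 1.54 over all libraries, was lost in DESeq2 (adjusted p = 0.409) and was at 0.10 without sgNeg2 replicate 1 and 0.11 without sgNeg2 replicate 2. Its call was kept with estimated counts and in the 3 limma settings. From replicate 1 to replicate 2 its FPKM went from 66.8 to 102.6 in sgNeg2, 90.9 to 125 in sgRNA1 and 109 to 132 in sgRNA2. PFKM and TALDO1 were lost in all 3 limma settings (limma adjusted p = 0.293 to 0.418 and 0.0765 to 0.148). HK1, ENO1 and TKT were lost in limma without the FPKM filter (adjusted p = 0.0604, 0.0797 and 0.0579). PGAM1, LDHA and LDHB, higher in replicate 2, and SLC16A3 and PDK3, lower, were called in at least 1 other setting, estimated counts among them.

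**Figure D5:**
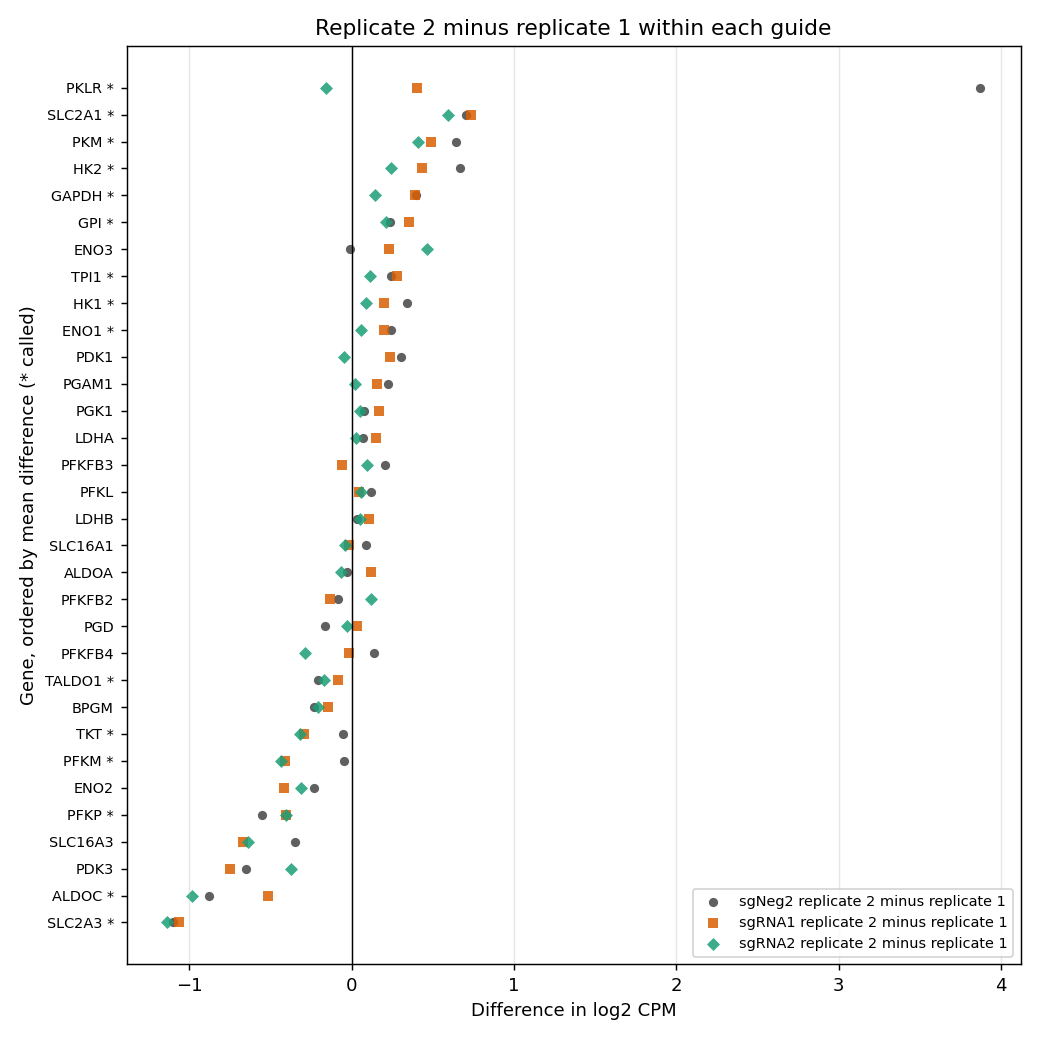
Difference in log2 CPM between replicate 2 and replicate 1 within each guide group (x axis) for 32 genes ordered by mean difference (y axis), with 1 point per group and stars on genes called in the fit with guide and replicate number. SLC2A3 lies at -1.14 to -1.07 and SLC2A1 at 0.60 to 0.74 in all 3 groups, while PKLR reaches 3.87 in sgNeg2 only.

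Other genes of these and neighbouring pathways, in lists fixed by name, are given for context. With the block, where 1.84% of all genes were called, KO against WT called 0 of 8 tested other glycolysis and transport genes, 0 of 8 other pentose phosphate genes, 0 of 9 genes of pyruvate entry, 0 of 4 of gluconeogenesis and 0 of 16 non-glycolytic hypoxia genes. At an unadjusted p under 0.05 these lists had 0, 1, 0, 1 and 6 genes, beside 1590 of all 12282. With estimated counts and the block, where 3.03% of all genes were called, 1 of the 16 hypoxia genes was called. This was BNIP3, named after its value was seen, which was at 0.43 (edgeR adjusted p = 0.0515) in whole-number counts. Of 10 tested regulators of glycolysis 1 was called, EPAS1, which encodes the hypoxia factor HIF-2 alpha. EPAS1 was at 27.1 and 23.0 CPM in the controls and at 9.13 to 13.5 CPM in the knockout libraries, all below both controls. Its log2 fold change was -1.20 (SE 0.134, edgeR adjusted p = 1.75e-04), and HIF1A, the HIF-1 alpha gene, was at 0.03 (edgeR adjusted p = 0.937). Among cell markers the blocked fit called the globin genes HBZ, HBG1 and HBG2 higher, at 0.64, 0.59 and 0.32 on the log2 scale. It also called COL1A1, which was at 0 and 0.106 CPM in the controls and at 0.869 to 1.54 in the knockout libraries. Their part in the differences of the glycolysis genes was not tested.

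Between replicate numbers, 9 of 16 tested hypoxia genes were called, 2 higher and 7 lower in replicate 2, where 45.0% of all genes were called, 21.6% higher and 23.5% lower. BNIP3 and BNIP3L, receptors of mitophagy, rose by 0.54 and 0.55 on the log2 scale. DDIT4, an inhibitor of mTORC1, was at 773 to 908 CPM in replicate 1 and 43.9 to 62.8 in replicate 2 (log2 -3.96, edgeR quasi-likelihood adjusted p = 2.54e-12). P4HA2, a collagen prolyl hydroxylase, and VEGFA, the angiogenic factor, were at -1.14 and -1.08. TXNIP, an inhibitor of glucose uptake, fell by 2.05 and MYC by 0.40 on the log2 scale. Of the other glycolysis list GAPDHS rose by 0.40, and SLC2A4, PGM2L1 and SLC2A12 fell by 0.98, 0.98 and 0.60. Of the other pentose phosphate list SHPK rose by 0.52, and H6PD, PRPS2 and DERA fell by 1.40, 0.63 and 0.57. MPC2 and MPC1, subunits of the mitochondrial pyruvate carrier, rose by 0.77 and 0.19, and PDP2, a pyruvate dehydrogenase phosphatase, by 0.44. PC, the pyruvate carboxylase, rose by 0.40, while PCK2 and G6PC3 fell by 0.84 and 0.24.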

How the data were processed

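RNA was sequenced from 6 K562 libraries, 2 for each of 3 guides. Each had deposited tables of 2 kinds. One held whole-number counts per gene symbol, with 5 further rows of reads given to no gene (61.6% to 62.6% of each total), which were left out throughout. The other listed estimated counts, TPM and FPKM by gene, per the file headers. The estimated counts are those deposited by the authors, with transcript identifiers and effective lengths beside them, per the file headers. The TPM and FPKM values were normalized for length and depth by the authors, per the file headers. The submitters' processing notes name Trim Galore, HISAT2 2.2.1, SAMtools 1.9, HTSeq 0.6.1, RSEM 1.3.2, DESeq2 1.36.0 and hg38, without saying which made which table. The strand setting is not given in the sources used here.

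Tests used edgeR 4.0.16 under R 4.3.3 (quasi-likelihood F-test, TMM, filterByExpr by group, Benjamini-Hochberg adjustment over 12282 genes, threshold 0.05). Standard errors are the log2 fold change over the square root of F. The design had no replicate block. Because libraries of the same number deviated together from their group means (r = 0.811, 0.757 and 0.824 over 9966 genes), the replicate number was treated as pairing them, from the data alone, and blocked values are given. The block lowered the common dispersion from 0.0585 to 0.00381 and left 2 residual degrees of freedom instead of 3 in the guide fits (1 when a library was left out). Estimated counts were rounded to whole numbers. DESeq2 1.42.0, limma 3.58.1 on log2(FPKM + 1), other scalings and filters, and leaving out each library were tried as other settings. Scripts were tested on simulated data. Shares and paired differences carry no test. Gene coordinates and promoter windows come from RefSeq, GRCh38.p14, matched by symbol.

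All 33 genes are named. Of the other lists, a gene is named with values if called in a guide or genotype comparison, or if among the 3 largest rises or falls of its list between replicate numbers. The genes and lists were chosen with earlier results of these data known. Some marker genes of these lists are not reported by name here.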

Additional observations from a re-analysis of the deposited data

Results flagged for a closer look

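In PDK3 and TALDO1 the paired differences of the guides had opposite signs. PDK3, a pyruvate dehydrogenase kinase with 8 to 19 counts per library, lay above its control with sgRNA1 in both replicate numbers (0.33 and 0.23 on the log2 scale) and below it with sgRNA2 (-0.38 and -0.10). In the blocked edgeR fit sgRNA2 minus sgRNA1 was -0.63 and did not pass. TALDO1, the transaldolase, lay above its control with sgRNA1 (0.01 and 0.13) and below it with sgRNA2 (-0.04 and -0.01), and sgRNA2 minus sgRNA1 was -0.10, which did not pass either. The pattern of signs itself was not tested, and both guides share the control libraries.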

How the results depend on the processing

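With the replicate block, the number of members called moved from 0 to 2 for sgRNA1, 3 for sgRNA2 and 3 for KO against WT. The shares of all genes called were 0.887%, 1.38% and 1.84%. With the block, estimated counts gave 4, 4 and 4 (1.39%, 2.26% and 3.03% of all genes). DESeq2 gave 1, 3 and 3 (0.449%, 0.750% and 1.37% of genes with an adjusted p), and limma on FPKM 2, 2 and 4 (0.372%, 0.795% and 1.64%). DESeq2 without the block gave 1 for KO against WT (0.155%). With the block and leaving out 1 library in turn, the counts were 1 to 6 for sgRNA1, 2 to 6 for sgRNA2 and 3 to 4 for KO against WT, where 0.499% to 3.63%, 1.28% to 5.02% and 1.12% to 1.87% of all genes were called. In the same way PKLR in sgRNA2 against sgRNA1 was at 2.14 without sgRNA2 replicate 2, where 1 sgRNA2 library was left. The 6 calls of each guide without sgNeg2 replicate 1 (2.45% and 3.05% of all genes), against 1 control library, included HK2 (-0.31 and -0.30) and PKM, and the causes were not tested. Over 10 blocked settings, SLC2A3 in KO against WT was called 10 times (-0.998 to -0.910), ENO2 10 times (0.81 to 1.25) and GPI 9 times (-0.32 to -0.25). Without the block, leaving out 1 library moved SLC2A3 between -1.40 and -0.31. With all libraries PKLR was negative in whole-number counts (0.84 in KO against WT without sgNeg2 replicate 2) and positive in estimated counts with the block (0.365 for sgRNA1, 0.515 for sgRNA2 and 0.442 for KO against WT) and in limma with the block (0.445). In edgeR on the whole-number counts of all libraries, the block changed the calls of SLC2A3, ENO2 and GPI and of no other member. The replicate comparison had 12 to 19 calls over its settings, where 26.8% to 52.6% of all genes were called, and the 19 came with the 52.6%. By whole-number counts over length, shares moved to 16.1% for PFKM, 45.7% for PFKP, 93.9% for PGAM1, 6.08% for BPGM, 99.5% for ENO1, 0.195% for ENO3, 98.3% for PKM, 1.72% for PKLR, 32.98% for LDHA and 67.0% for LDHB. With estimated counts on the CPM scale, a choice made after the values were seen, 5 members instead of 3 had 4 paired guide differences above 0. The share of all genes with that pattern was not computed on this scale, so the 5 has no background to be read against. Depth limits PDK3, SLC16A3 and ENO3 most, and ENO2 in the controls rests on 48 and 52 counts.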
